A study of Mus musculus with 17 samples.

Results

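Sln, Myl7, Myl4, Bmp10 and Dkk3 are 5 genes of atrial muscle that were measured here in RNA-Sequencing libraries of whole left ventricle apex, 17 libraries of 1 mouse each with 21798 genes listed. They were chosen from measured values, because they appeared high in the libraries S18, S19 and S20 and low in the other 14. The question was which of them also responded to transverse aortic constriction (TAC) in those 14. Dkk3 had already been named as a likely responder when the question was set, so its value is not independent evidence. All mice were male, of the genotype C57Bl6/J, and 7 to 8 weeks old at surgery. They received TAC, a ligature that narrows the aorta and overloads the left ventricle, or a Sham operation. From 1 week after surgery they received 6 gavages, over 2 weeks, of saline as Vehicle (Veh) or of 29P, an RGD mimetic specific for αvβ3-integrin, at 50 μg/kg, and tissue was taken 3 weeks after surgery. Of the 14 libraries 5 were TAC 29P, and TAC Veh, Sham 29P and Sham Veh had 3 each, while S18 was labelled TAC 29P and S19 and S20 were labelled Sham Veh.

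Values are CPM, read counts per M reads of the library. Depth, read from the step between low values, was 14.2 to 23.8 M reads, so that 3 reads, the upper limit that a value of 0 allows, stand for 0.126 to 0.211 CPM (counting error only). Mitochondrial-encoded genes held 32.0 to 40.01% of the reads in the 6 Sham libraries of the 14 and 23.6 to 29.4% in the 8 TAC libraries. In S18 they held 25.1%, and in S19 and S20 35.2% and 29.1%. Each library name also carries a number before its S number. By these numbers the libraries form 4 runs, S1 to S11, S12 to S14, S15 and S16, and S18 to S20. The labels do not call these runs batches. S18, S19 and S20 are the whole of the last run, so the run and whatever sets these libraries apart cannot be told apart.

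Atrial and ventricular cardiomyocytes build the same contractile apparatus from partly different genes. Myl7 and Myl4 encode the regulatory and the essential myosin light chain of the atria, whose places are taken in the ventricle by Myl2 and Myl3. Sln encodes sarcolipin, a very short membrane peptide that slows the sarcoplasmic reticulum calcium pump, and phospholamban (Pln) is its counterpart in the ventricle. Bmp10 encodes a secreted ligand of the BMP family that in the adult mouse heart is made mainly by the right atrium and signals through Acvrl1 and endoglin. Dkk3 encodes a secreted glycoprotein related to the Dickkopf inhibitors of Wnt signalling.

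The coding sequence of Sln is shown whole because it is short enough to read at a glance. It holds 96 bases at chr9:53853473-53853568 of mm10 (plus strand), with the start and the stop codon in capitals.
Sln: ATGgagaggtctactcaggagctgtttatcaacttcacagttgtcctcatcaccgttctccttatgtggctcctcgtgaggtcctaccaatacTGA
The 250 bases before the start sites of Myl7 and Bmp10 are shown because these members were together in some libraries and apart in others. RefSeq (GRCm38.p6) gave such a sequence for 3 of the 5 members, Myl7, Myl4 and Bmp10. Both strands were searched for 7 motifs, of which MEF2 and the CArG box are given by name. The motif AGATAA is known from cardiac zinc finger factors, and GGTGTGA is known from T-box factors. TATAAA is the core of the TATA box, AGGTCA is a binding element of nuclear receptors, and CATTCC is known from TEAD factors. Matches are in capitals.
Myl7: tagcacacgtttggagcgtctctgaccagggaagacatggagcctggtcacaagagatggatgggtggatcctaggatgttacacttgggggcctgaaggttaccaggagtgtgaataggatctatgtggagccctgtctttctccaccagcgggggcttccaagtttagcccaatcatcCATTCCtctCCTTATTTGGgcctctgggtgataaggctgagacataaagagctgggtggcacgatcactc
Bmp10: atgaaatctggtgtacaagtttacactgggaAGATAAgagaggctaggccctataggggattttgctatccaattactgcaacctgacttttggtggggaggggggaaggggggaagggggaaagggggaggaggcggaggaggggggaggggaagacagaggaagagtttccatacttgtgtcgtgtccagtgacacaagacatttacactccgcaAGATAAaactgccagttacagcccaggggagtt
The Myl7 sequence is the minus strand of chr11:5898783-5899032, and it held CATTCC and a CArG box that begin 70 and 61 bases before the start site. The Bmp10 sequence is the plus strand of chr6:87428744-87428993, and it held AGATAA 219 and 33 bases before the start. Among 32851 promoters of the same length, 1.47% held a CArG box, 12.6% CATTCC and 9.99% AGATAA, and the Myl4 promoter held none of the 7 motifs. A match describes these letters and does not show that a factor binds there.

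The 5 genes lie on 4 chromosomes of mm10. Sln spans chr9:53850164-53854560 (plus strand), Myl7 chr11:5896637-5898782 (minus), Myl4 chr11:104550663-104595753 (plus), Bmp10 chr6:87428994-87437677 (plus) and Dkk3 chr7:112116017-112159057 (minus). Myl4 overlaps 4 annotated genes on the opposite strand. Of these, 2 are in the file and never exceeded 0.182 CPM.

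Myl7, Myl4 and Sln were high in S18, S19 and S20 alike. Myl7 was at 335.5 CPM in S18, 894.8 in S19 and 722.9 in S20, against at most 1.002 in the other 14 libraries. Myl4 was at 518.3, 1207 and 977.8 CPM in the same order, against at most 4.43. Sln was at 161.5, 441.4 and 331.5 CPM, against at most 0.626. For each of these 3 genes the Sham library S19 was the highest and the TAC library S18 the lowest of the 3. Dkk3 was also above all 14, at 193.9, 123.1 and 100.1 CPM against at most 26.3, but with S18 the highest of the 3.

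Bmp10 did not share this pattern. It reached 514.2 CPM in S18 but only 0.179 CPM (4 reads) in S19 and 0 in S20, where 3 reads would be 0.150 CPM. It was therefore high in 1 of the 3 libraries, which goes against the grouping that named it. These values chose the members and are given with no test. As background, 271 of 21798 genes, or 1.24%, lay above all 14 libraries in each of S18, S19 and S20, and 46 genes (0.211%) lay below. Together the 5 members made up 0.172% of the reads in S18, 0.267% in S19 and 0.213% in S20, and at most 0.00286% in any of the 14.

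**Figure D1:**
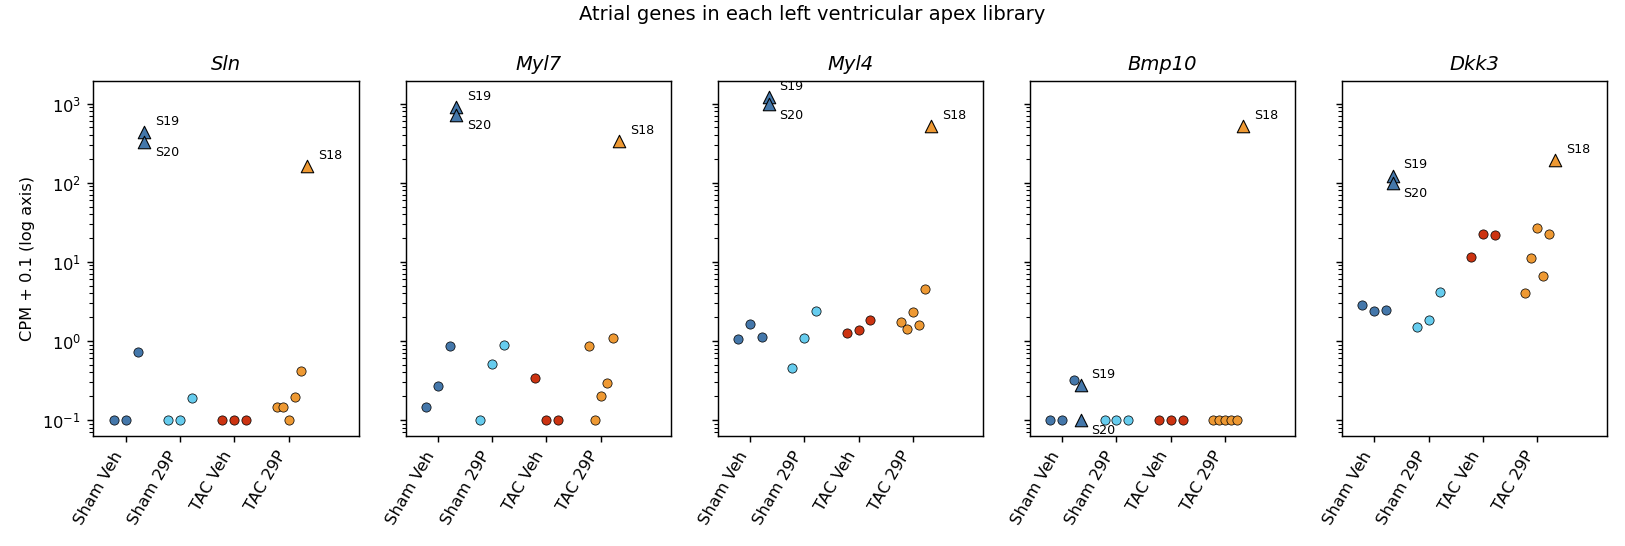
CPM + 0.1 of each member on a log axis, 1 point per library, by group. Triangles are S18, S19 and S20 and circles the other 14 libraries. Sln, Myl7 and Myl4 are high in all 3 triangles, Bmp10 only in S18, and the Dkk3 circles of the TAC groups lie mostly above those of the Sham groups.

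Compared per kilobase of annotated exon, Myl7 had the highest level of the 5 in each of S18, S19 and S20, with a median of 1225 CPM per kb. The medians of Sln and Myl4 were 251.5 and 210.9 CPM per kb, and that of Dkk3 was 36.6. Sln stood above Myl4 in each of the 3 libraries, by the least in S18 (122.6 against 111.8 CPM per kb). In S18, Bmp10 (114.5 CPM per kb) lay between Sln and Myl4. Exon length was the union of all annotated exons, which for Myl4 (4637 bases) includes exons of long transcripts, so its level per kb is a low estimate where these are not used.

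Within each of S18, S19 and S20, Sln, Myl4 and Myl7 stood in nearly the same proportion although their levels differed. The ratio of Sln to Myl7 was 0.482 in S18, 0.493 in S19 and 0.459 in S20. The ratio of Myl4 to Myl7 was 1.54, 1.35 and 1.35. Dkk3 kept its ratio to Myl7 between the Sham libraries (0.138 in both) but stood at 0.578 in S18, 4.19 times their mean. Bmp10 had a ratio of 1.53 in S18 and 0.0002 in S19. A higher ratio in S18 was not particular to these 2 members. Among the 10 genes with the largest gap to the other libraries Mlana stood at 4.52 times the mean of S19 and S20, Gm32849 at 2.80 and Rxfp1 at 1.98 times. S18 is the only TAC library and the only 29P library of the 3, so surgery, treatment and library cannot be told apart in these ratios.

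**Figure D2:**
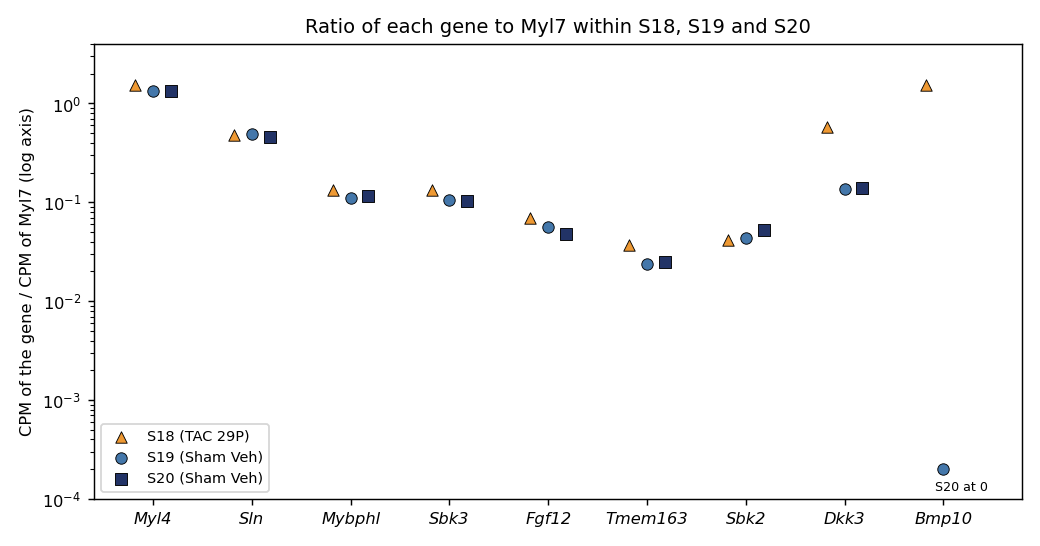
CPM of each gene divided by the CPM of Myl7 in the same library, on a log axis, for S18, S19 and S20. The ratios of Myl4, Sln, Mybphl and Sbk3 lie close together in the 3 libraries. Of the genes drawn, Dkk3 and Bmp10 have the widest distance between S18 (0.578 and 1.53) and the other two.

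Ranked by the log2 gap between the lowest of S18, S19 and S20 and the highest of the other 14, the leading 10 of 13209 genes were Myl7 (8.25), Sln (7.80), Mybphl (7.17), Myl4 (6.84), Fgf12 (6.10), Tmem163 (5.32), Rxfp1 (4.48), Mlana (3.25), Gm32849 (3.11) and Sbk3 (3.10). The 13209 genes were those with at least 1 CPM in each of S18, S19 and S20. Among the first 4 stood 3 of the members. The members were chosen for this gap, so their rank is a description and no support. Mybphl, which encodes an atrial relative of myosin binding protein C, was at 44.8, 98.6 and 84.6 CPM in S18, S19 and S20 and at most 0.211 in the others. Fgf12, an intracellular partner of sodium channels, was at 23.5, 50.3 and 34.4 CPM against at most 0.245. Dkk3 was 22nd, with a gap of 1.92, because TAC libraries among the 14 reached 26.3 CPM.

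Of 13 further atrial genes, 8 lay above all 14 libraries in S18, S19 and S20: Mybphl, the kinase genes Sbk2 and Sbk3, the potassium channel genes Kcnj3 and Kcnj5, the gap junction gene Gja5, Pam, which encodes a peptide-amidating enzyme, and the transcription factor gene Tbx5. None lay below. The summed CPM of the list was 5228, 6143 and 5166 in S18, S19 and S20, 744 to 848 in the 6 Sham libraries and 1342 to 5626 in the 8 TAC libraries, so that the sums of S18 and of the TAC libraries overlapped. Nppa, which encodes atrial natriuretic peptide and is switched on in overloaded ventricles, made up much of that sum. It was at 3085, 3670 and 3101 CPM in S18, S19 and S20, within the range of the 8 TAC libraries (600.7 to 4498) and above the 6 Sham libraries (129.7 to 304.4).

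The ventricular light chain genes lay within the range of the other libraries. Myl2 was at 4546, 5501 and 5403 CPM in S18, S19 and S20, within the 4107 to 6737 of the other 14. Myl3 was at 2251, 2231 and 3011 CPM, also within their range of 1961 to 3874. In S18, however, Myl3 lay below all 8 TAC libraries, of which the lowest was S16 at 2810 CPM. Of the 8 ventricular genes, 2 transcription factor genes lay below all 14 in each of the 3 libraries, as did 0.211% of all genes listed. Hey2 was at 3.90, 2.59 and 3.35 CPM against at least 4.02, and Irx3 was at 8.68, 5.41 and 6.49 CPM against at least 10.8. The summed CPM of the list was 6920, 7832 and 8563, against 6589 to 9769 in the Sham and 7571 to 8930 in the TAC libraries. The sum of S18 thus lay below the TAC range.

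Genes of the sinoatrial node, the pacemaker of the heart, differed among themselves. Their summed CPM was 41.6 in S18, 22.7 in S19 and 36.4 in S20, against 19.4 to 30.5 in the other 14 libraries, so that S18 and S20 lay above them and S19 within. None of the 5 sinoatrial node genes lay above all 14 libraries in each of S18, S19 and S20. Shox2, a transcription factor gene of the node, was at 5.66 CPM in S18, 1.25 in S19 and 1.10 in S20, against 0.313 to 2.19. Isl1 was at 0.503 CPM in S18, 0.0447 in S19 and 0.04995 in S20, and at 0 to 0.0922 in the others. The channel gene Hcn4 was at 10.4, 2.77 and 4.80 CPM in S18, S19 and S20, against 2.72 to 9.87, and these 3 genes were highest in S18. Tbx3 was instead highest in S20, at 17.6, 14.3 and 25.2 CPM in the same order against 8.41 to 16.97. Tbx18 lay within the range of the others in all 3 libraries (7.42, 4.33 and 5.24 CPM against 3.82 to 8.85). These are single libraries and carry no test.

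In the other cell type lists few genes lay above all 14 libraries in each of S18, S19 and S20, as did 1.24% of all genes listed. Of the skeletal muscle genes 1 of 6 listed (Atp2a1, 0.603, 1.91 and 2.52 CPM against at most 0.530) and of the smooth muscle genes 1 of 4 (Cnn1) lay above all 14 libraries in S18, S19 and S20. The summed CPM of the skeletal muscle genes was 3.12, 10.5 and 8.22 in S18, S19 and S20, against at most 2.70 in the 14. Tnni2 was its largest part in S19 and S20, at 7.06 and 4.65 CPM against at most 1.34 in the 14. In S18 Tnni2 was at 1.26 CPM, within their range. The smooth muscle sum was 365, 242 and 362 CPM in S18, S19 and S20, against 94.8 to 158 in the Sham and 131 to 301 in the TAC libraries. No gene of the epicardial (6 genes), valve and fibroblast (4), endothelial (3), adipocyte (3) or red blood cell (4) lists lay above all 14 libraries in each of S18, S19 and S20. The valve and fibroblast sum was 955 in S19 and 974 in S20, above the 530 to 689 of the 6 Sham libraries, and 1923 in S18, within the 882 to 2570 of the TAC libraries. The endothelial sum was 603 in S18, under the 675 to 893 of the TAC libraries, and 410 and 501 in S19 and S20, within the 336 to 716 of the Sham libraries. The epicardial sum was 14.4 CPM in S20, above the highest of the 14 (11.8), and within their range in S18 and S19. The red blood cell sums (1399, 1009 and 2088 CPM) lay within the range of the libraries of the same surgery. The sum of the 3 adipocyte genes was 5.16, 1.25 and 7.09 CPM in S18, S19 and S20, against at most 2.29. The part of these cell types in the levels of the members was not tested. In tissue sequenced whole, fewer cells of a type and less RNA per cell cannot be told apart.

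**Figure D3:**
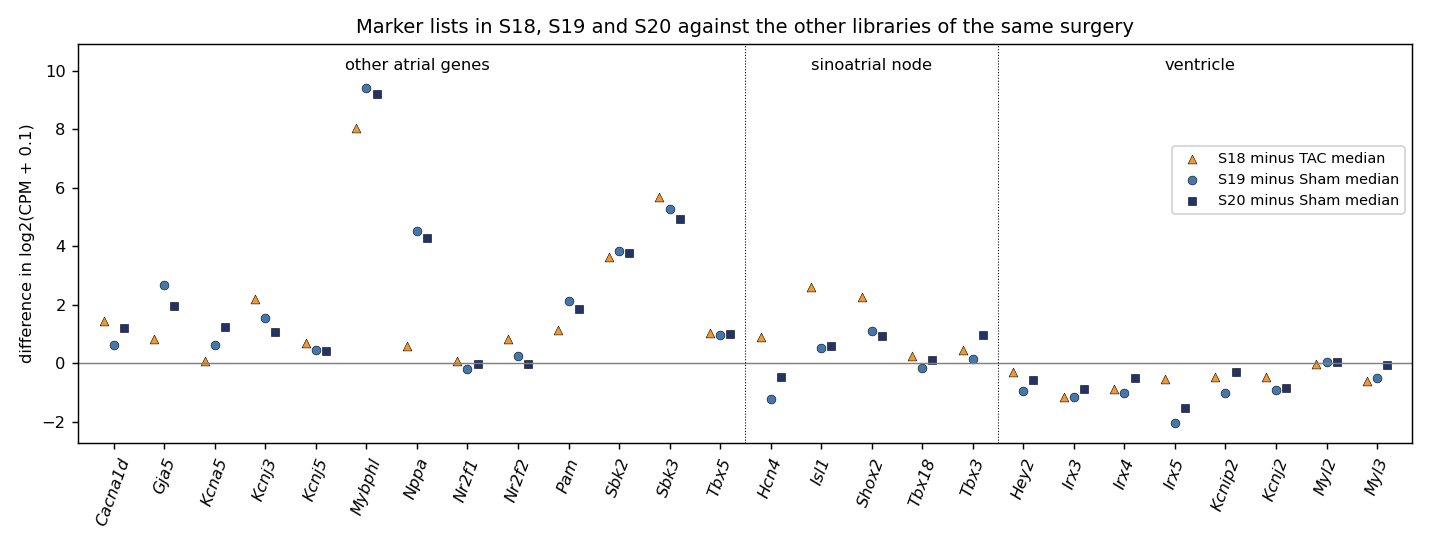
Difference in log2(CPM + 0.1) of each list gene between S18 and the median of the 8 TAC libraries, and between S19 or S20 and the median of the 6 Sham libraries. Mybphl and Sbk3 stand highest in each of the 3 libraries, and Isl1 and Shox2 are highest in S18. Every ventricular gene other than Myl2 lies below 0 in each of the 3 libraries.

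Outside S18, S19 and S20, Sln and Bmp10 were close to absent. Sln was listed at 0 in 8 of the 14 libraries, and its highest value was 0.626 CPM in S6 (Sham Veh), followed by 0.317 in S9 (TAC 29P). Bmp10 was at 0 in 13 of the 14 libraries and at 0.224 CPM in S6. The highest Sln value stands for 14 reads and the Bmp10 value for 5, and neither gene reached 0.5 CPM in 3 libraries, the limit for testing, so no fold change is given. Myl7 was at 0 in S14, S2, S16 and S11 and highest in S9 (1.002 CPM). S9 was also the library of the 14 with the most Myl4 (4.43 CPM) and Mybphl (0.211 CPM).

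Dkk3 was the member that responded to TAC in the 14 libraries. In Sham Veh mice it was at 2.27, 2.33 and 2.76 CPM, and in Sham 29P mice at 4.01, 1.41 and 1.76. In TAC Veh mice it was at 21.6, 11.2 and 22.7 CPM, and in TAC 29P mice at 3.93, 26.3, 6.45, 22.6 and 11.1. Of the 8 TAC libraries 7 lay above every Sham library, and S1 (TAC 29P, 3.93 CPM) lay just under the highest Sham library (S4, 4.01). The mean log2(CPM + 0.1) was 3.74 ± 0.99 (SD, n = 8) after TAC and 1.26 ± 0.50 (SD, n = 6) after Sham.

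Averaged over both treatments, TAC raised Dkk3 by 2.56 on the log2(CPM + 0.1) scale (SE 0.39, limma adjusted p = 0.000338). Pooled regardless of treatment, 8 TAC against 6 Sham libraries differed by 2.47 (exact two-sided permutation p = 0.00133 over 3003 splits). In that comparison 47.8% of the 16004 genes tested were called higher and 2.99% lower, and all TAC lay above all Sham libraries for 16.3% of them. Across all genes the log2 fold changes had a median of 0.35 with the deposited CPM and 0.01 with TMM factors, under which Dkk3 rose by 2.22 (limma adjusted p = 0.000465). On totals without the mitochondrial-encoded genes, whose share was lower after TAC, it rose by 2.39 (limma adjusted p = 0.000457). In Veh mice alone the change was 2.80 (SE 0.57, limma adjusted p = 0.00907), where 14.6% of genes were called higher. In 29P mice it was 2.31 (SE 0.51, limma adjusted p = 0.00757), where 31.9% were. In Veh mice the exact permutation p was 0.1, the smallest that 3 against 3 libraries allow, and in 29P mice 0.0714, where the smallest is 0.0357. Without S2 the change in Veh mice was 2.66 and missed the threshold (limma adjusted p = 0.0511).

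Over both treatments 47.8% of all genes tested were called higher after TAC with the deposited CPM, and a smaller share with TMM factors. Genes of fibroblasts and valves were among those called higher. All 4 of that list passed in limma as higher (Postn, Col1a1, Pdgfra and Dcn, median log2 fold change 1.46; 3 of 4, without Pdgfra, with TMM or median-of-ratios factors), and their summed CPM was 530 to 689 in the 6 Sham and 882 to 2570 in the 8 TAC libraries. All 3 endothelial genes were also called higher, with a median of 0.57, but with TMM factors only Cdh5 passed and the median was 0.23. All 4 red blood cell genes were called higher (median 0.96), of which only Hba-a1 with TMM factors, and so were 2 of 4 smooth muscle genes (Tagln and Cnn1, list median 0.61), of which Tagln with TMM factors. Their part in the Dkk3 result was not tested.

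Within each run of the 14 libraries Dkk3 was higher on average in TAC than in Sham libraries, but treatments were not matched within the runs. TAC libraries exceeded Sham libraries by 2.12 on the log2(CPM + 0.1) scale in S1 to S11 (6 against 3). The difference was 2.45 in S12 to S14 (1 against 2). S16 exceeded S15 by 3.61, but S16 was TAC Veh and S15 Sham 29P, so treatment differed along with surgery. Within S18 to S20 the TAC 29P library exceeded the mean of the Sham Veh libraries by 0.80. The values of that run chose the member, so this difference is a description and no support. With the run as a covariate the change was 2.46 over both treatments (limma adjusted p = 0.00108) and 2.02 in 29P mice, where it missed the threshold (limma adjusted p = 0.0908).

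Myl4 did not pass the test after TAC. It was at 1.51, 1.03 and 0.951 CPM in Sham Veh, 2.31, 0.352 and 0.997 in Sham 29P, 1.75, 1.17 and 1.28 in TAC Veh, and 1.65, 2.19, 1.503, 4.43 and 1.32 in TAC 29P mice. The groups overlapped, with S9 the highest and S14 the lowest library. The log2 fold change over both treatments was 0.62 (SE 0.34, limma adjusted p = 0.14), and the difference pooled regardless of treatment was 0.68 (exact permutation p = 0.0899). In 29P mice it was 0.99 (SE 0.46, limma adjusted p = 0.104, exact permutation p = 0.25), with an unadjusted limma p of 0.0478. Without the Sham 29P library S4 both changes passed the threshold, at 0.92 (limma adjusted p = 0.0194) and 1.58 (limma adjusted p = 0.0101). Relative to the median of all genes the change was smaller, at 0.31 with TMM factors.

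Myl7 gave no call in either direction. It was at 0.168, 0.761 and 0.0475 CPM in Sham Veh, 0.784, 0 and 0.411 in Sham 29P, 0, 0.245 and 0 in TAC Veh, and 0.760, 0.0996, 0.194, 1.002 and 0 in TAC 29P mice. The groups overlapped throughout. The difference pooled regardless of treatment was −0.40 (exact permutation p = 0.57). Its log2 fold change after TAC over both treatments was −0.56 (SE 0.66, limma adjusted p = 0.492), with a 95% interval from −1.95 to 0.84. The interval holds changes of either sign. Of the 5 members 3 were tested, and Dkk3 was the 1 called.

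None of the 3 tested members was called for 29P within either operation. Within TAC the log2 fold change was −0.66 (SE 0.51) for Dkk3, 0.51 (SE 0.46) for Myl4 and 1.23 (SE 0.88) for Myl7, each with a limma adjusted p of 0.9997. The 95% interval of the Dkk3 difference ran from −1.75 to 0.43, and the TAC Veh values lay within the range of the TAC 29P values (exact permutation p = 0.464, n = 3 and 5). Within Sham the changes were −0.17, −0.23 and 0.14 (limma adjusted p = 0.987, 0.977 and 0.992). The TAC response with and without 29P differed by −0.49 (SE 0.77) for Dkk3, 0.74 (SE 0.69) for Myl4 and 1.09 (SE 1.32) for Myl7 (limma adjusted p = 0.984 for each). By limma no gene of 16004 (0%) was called in any of these 3 comparisons, and at an unadjusted p of 0.05 it called 497 (3.11%) within TAC, 584 (3.65%) within Sham and 602 (3.76%) for the difference between responses. These comparisons share groups with those after TAC.

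Fitted with S18, S19 and S20 included, the same comparisons gave other answers. The TAC change of Dkk3 over both treatments was then 1.81 (SE 0.90, limma adjusted p = 0.0972), and in Veh mice it was 0.62 (SE 1.30, limma adjusted p = 0.73), since S19 and S20 entered Sham Veh at 123.1 and 100.1 CPM. In 29P mice, where S18 entered TAC 29P, it was 3.00 (SE 1.25, limma adjusted p = 0.072). In Veh mice the log2 fold change was −5.33 for Sln, −5.61 for Myl7 and −3.66 for Myl4, with limma adjusted p = 0.13, 0.126 and 0.22. The 29P change within Sham was −5.02 for Sln, −4.38 for Myl7 and −4.14 for Myl4 (limma adjusted p = 0.744, 0.764 and 0.747). Sln passed the filter for testing only because S18, S19 and S20 entered. The values that chose the members are part of all these fits of 17 libraries. Such fits show what S18, S19 and S20 change and support no response. For Myl4 the sign was the reverse of that in the 14 libraries, in Veh mice and over both treatments (−0.67). With all 17 libraries 53.4% of 16218 genes were called in either direction after TAC, and 50.8% of 16004 in the 14.

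**Figure D4:**
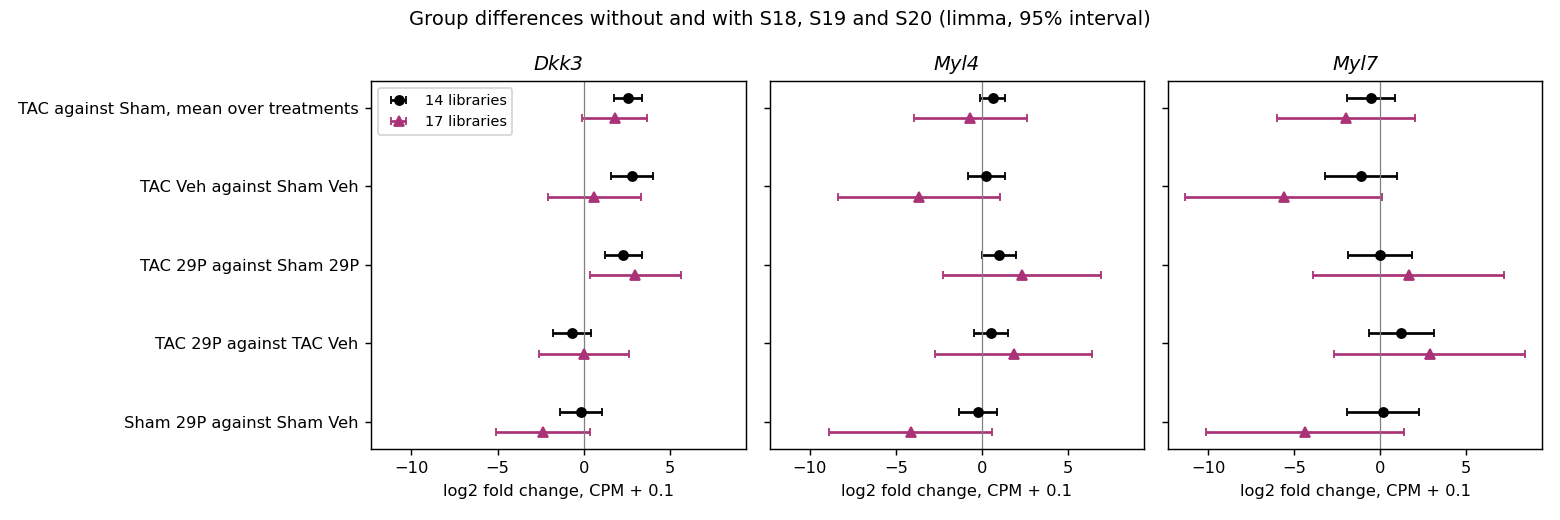
Log2 fold changes of Dkk3, Myl4 and Myl7 with their 95% intervals (limma) in the 14 libraries (circles) and in all 17 (triangles). For Dkk3 the TAC change in Veh mice is 2.80 in the 14 and 0.62 in the 17, and the intervals widen with S18, S19 and S20.

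Dkk3 and genes of overload shared their lowest TAC library but not their highest. S1, its lowest TAC library, was also the lowest for 6 of 7 overload genes, Nppa (600.7 CPM, next 1340), Nppb, Myh7, Ankrd1, Xirp2 and Fhl1, while Acta1 was lowest in S9. At the upper end, S2 was the highest TAC library for 6 of the 7 (Nppb was highest in S16), whereas Dkk3 was highest in S3, followed by S16 and S9, with S2 next. All 7 of these genes rose after TAC, with a median log2 fold change of 2.18, and Nppa is also among the atrial genes. Over the 14 libraries the genes whose log2(CPM + 0.1) was most like that of Dkk3 were Col12a1 (Pearson r = 0.983), Thbs4 (0.982) and Col8a2 (0.981) of 16004 genes. For Myl4 they were Ptges (0.944), Zfp61 (0.932) and Nlrp3 (0.912), and for Myl7 Wdr72 (0.793), Mrpl41 (0.777) and Mrpl47 (0.772). These are descriptions over libraries that share surgery, depth and mitochondrial share, and they carry no test.

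The other atrial genes moved in both directions after TAC in the 14 libraries. Of 12 tested, 6 rose and 3 fell, with a median log2 fold change of 0.29 against 0.35 for all genes. Of all genes 47.8% were called higher and 2.99% lower, so the count that rose is near the background. Nppa rose by 3.58 (SE 0.30, limma adjusted p = 6.07e-06), from 129.7 to 304.4 CPM in Sham to 600.7 to 4498 CPM in TAC libraries. Pam rose by 0.86 (SE 0.09, limma adjusted p = 3.79e-05), with 394 to 489.5 CPM in Sham and 579 to 988 CPM in TAC libraries. Neither gene overlapped between the operations, and 16.3% of all genes tested lay higher in all TAC libraries. Kcna5, Gja5, Nr2f1 and Cacna1d rose by 0.33 to 0.72, and none of these 4 was called with TMM factors.

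Sbk2, Sbk3 and Kcnj3 fell, although all 3 were high in S18, S19 and S20. Sbk2 was at 1.39 to 3.46 CPM in the 6 Sham and 0.399 to 1.64 in the 8 TAC libraries (log2 fold change −1.38, SE 0.24, limma adjusted p = 0.000631). Sbk3 was at 0.895 to 5.10 CPM and 0.299 to 1.27 (−1.43, SE 0.35, limma adjusted p = 0.00465). Kcnj3, a subunit of the acetylcholine-gated potassium channel, was at 47.99 to 92.8 CPM and 16.4 to 36.7 (−1.21, SE 0.19, limma adjusted p = 0.000419). Only Kcnj3 of these 3 did not overlap between Sham and TAC, and 0.606% of all genes tested lay lower in all TAC libraries. Nppa, Pam, Sbk2, Sbk3 and Kcnj3 kept their direction and their call under each of the 3 other scalings. Kcnj5 and Tbx5 were called lower under those scalings. With the deposited CPM they were also lower, by −0.32 and −0.36, but were not called.

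**Figure D5:**
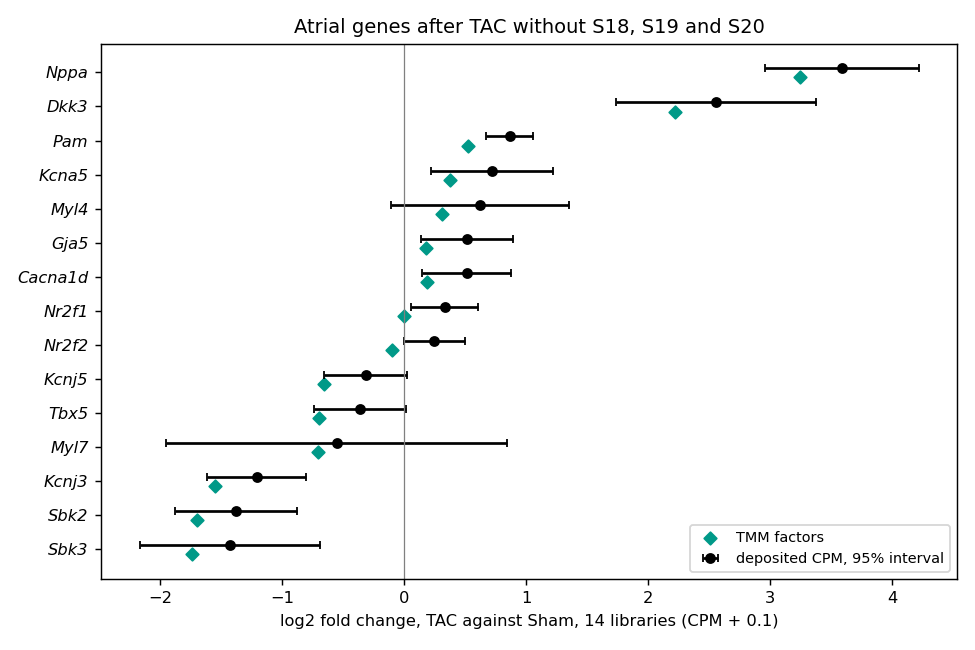
Log2 fold change after TAC in the 14 libraries for the tested members and other atrial genes, with 95% intervals (limma), for the deposited CPM (circles) and with TMM factors (diamonds, no interval). Nppa and Dkk3 stand highest at 3.58 and 2.56, and Kcnj3, Sbk2 and Sbk3 lowest.

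Genes of the same families and pathways as the members gave the following counts after TAC in the 14 libraries. Of 13 tested myosin light chain and light chain kinase genes 6 rose (Myl1, Myl6, Myl6b, Myl9, Myl12a and Myl12b, by 0.62 to 1.06, of which Myl9 was not called with TMM factors) and 1 fell (the kinase gene Mylk3, −0.32), with a median of 0.62. Their count is near the 47.8% of all genes called higher, and the median of all genes was 0.35. Myl2 and Myl3 had log2 fold changes of −0.19 and 0.19 and were not called, but with TMM factors Myl2 was called lower as well. In S18, S19 and S20, Myl1 (57.6, 86.8 and 58.8 CPM against at most 33.7) and Myl9 (83.3, 53.3 and 70.9 CPM against at most 34.4) lay above all 14 libraries beside Myl4 and Myl7.

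Of 11 tested genes of the calcium pump and its partners 3 rose and 6 fell, with a median log2 fold change of −0.35, where 47.8% of all genes were called higher and 2.99% lower. Pln fell by 0.44 (SE 0.11, limma adjusted p = 0.00413), the pump gene Atp2a2 by 0.38, and Strit1, which encodes a small peptide that activates the pump, by 1.46. Pln was at 4614, 4752 and 5045 CPM in S18, S19 and S20, so it was far more abundant than Sln there. With TMM factors the same 6 genes (Pln, Strit1, Atp2a2, Ryr2, Hrc and Trdn) fell and none rose. Under that scaling a larger share of all genes was called lower, and 51.1% of the called genes were higher.

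Of 14 tested genes of BMP9 and BMP10 signalling 8 rose and none fell, with a median log2 fold change of 0.40, near the 47.8% called higher and the median of 0.35 over all genes. The receptor gene Acvrl1 rose by 0.73 (SE 0.17, limma adjusted p = 0.0038), endoglin (Eng) by 0.75 and the target gene Id3 by 0.86. With TMM factors 2 of the 14, Smad1 and Id3, were called. None of the listed genes lay above all 14 libraries in S18, S19 and S20. Id3 was at 55.6 CPM in S18, where Bmp10 was at 514.2, and at 35.7 and 53.9 in S19 and S20.

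Among the Dickkopf proteins and their receptors 4 genes were tested, with the member Dkk3 counted in. All 4 were called higher, as were 47.8% of all genes. Beside Dkk3 these were the receptor genes Kremen1 (1.04, SE 0.17, limma adjusted p = 0.000595), Lrp5 (0.74) and Lrp6 (0.24), of which Lrp6 was not called with TMM factors. Dkk2 stayed at or under 0.528 CPM in the 14 libraries and reached 1.13 CPM in S18. Dkk3 alone of the list lay above all 14 libraries in S18, S19 and S20.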

How the data were processed

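Poly(A) RNA of the left ventricular apex was sequenced (TRIzol, NEBNext Ultra II). The authors aligned the reads with STAR 2.3.7 in Partek Flow to mm10, removed 3 libraries, and deposited CPM with 0.0001 added to each value. By the paper, a TAC Veh library among these 3 was removed because it clustered with Sham libraries in principal component analysis. The others were removed for low read numbers. The removal of the TAC Veh library rested on its expression, which can favour differences between TAC and Sham. Its effect on the TAC changes and p-values given here was not tested. The methods name a strand specificity reagent in the library kit and Genocode 25 as the annotation. The counting tool, its strand setting and the filter on genes are not given in the sources used here. The constant was subtracted before values were printed. Between 78.9 and 81.8% of low values were whole reads (within 0.02 reads), so counts were not recovered and DESeq2, named in the methods, was not run.

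limma 3.58.1 (R 4.3.3; lmFit, contrasts.fit, eBayes with trend) was fitted to log2(CPM + 0.1), which understates the changes of low genes. It used 16004 genes with CPM of at least 0.5 in at least 3 of the 14 libraries and 1 mean per group. Calls were made at a Benjamini-Hochberg adjusted p of 0.05, and the model was tested on simulated data. An exact permutation test over the libraries of the groups compared (two-sided, scipy 1.17.1, the smaller tail doubled) was added for the members. For TAC over both treatments it pooled the libraries regardless of treatment, so its difference is not the treatment mean that limma gave. The labels make each library 1 mouse. Alternatives were 2 other constants, 2 other filters, 3 other scalings, all 17 libraries and only the groups compared. Further ones were the run of the numbers in the library names as a covariate, no variance trend, an unadjusted threshold and each library left out. Named genes were the members, the 10 with the largest gap, the 3 most correlated with each tested member, and list genes. The members and lists were chosen with earlier results of these data known. Some list genes are not reported here and were left out of the counts and sums of their lists. Coordinates are from GENCODE vM21, which is not the release named for the deposited values. No difference between S18, S19 and S20 and the other libraries was tested for support, since these values chose the members.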

Additional observations from a re-analysis of the deposited data

Results flagged for a closer look

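In the TAC 29P group of 6 libraries, the gap between S18 and the other 5 exceeded Dixon's critical value for 4 of the members: Sln at 161.5 CPM, Myl7 at 335.5 CPM, Myl4 at 518.3 CPM and Bmp10 at 514.2 CPM. The members and S18 were chosen for these values, so this is a description and not a test, and the rate of about 1 in 20 groups that chance marks elsewhere does not apply.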

How the results depend on the processing

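Dkk3 after TAC over both treatments was called in each of the 14 fits that left out 1 library (2.40 to 2.77) and under all alternatives other than all 17 libraries (1.81, limma adjusted p = 0.0972). In Veh mice it was called in 13 of 14 such fits (2.62 to 3.13, lost without S2) and gave 0.62 with all 17. In 29P mice it was called in 14 of 14 (2.001 to 2.74), and gave 3.00 with all 17 and 2.02 with the run as a covariate, both no longer past the threshold. Its 29P change within TAC became 0.023, and its difference between responses 2.37, with all 17 libraries. Leaving out 1 library gave −0.60 to 0.12 for Dkk3 within Sham, −0.98 to −0.29 within TAC and −0.82 to −0.06 for the difference between responses.

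For Myl4, leaving out 1 library gave 0.31 to 0.92 after TAC (called only without S4), 0.09 to 0.44 in Veh mice, 0.37 to 1.58 in 29P mice (called only without S4), 0.23 to 0.67 for 29P within TAC and −0.82 to 0.39 within Sham. Its signs turned with all 17 libraries (−0.67 after TAC, −3.66 in Veh mice), with TMM and median-of-ratios factors in Veh mice (−0.059 and −0.047) and with the run as a covariate within TAC (−0.020). At the unadjusted threshold its change in 29P mice, 0.99, was called. For Myl7, leaving out 1 library gave −1.01 to −0.20 after TAC, −1.70 to −0.40 in Veh mice, −0.92 to 0.65 in 29P mice, 0.82 to 1.82 within TAC and −0.52 to 1.05 within Sham. Its signs turned with the constant 0.0001 (1.10 in 29P mice, −2.52 within Sham) and with all 17 libraries (1.64 and −4.38). The causes were not tested.

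Counts of genes moved more. After TAC 7657 genes were higher and 478 lower with the deposited CPM, 2147 and 2055 with TMM factors, 2205 and 2002 with median-of-ratios factors and 4285 and 972 on totals without mitochondrial genes. The share higher among called genes was 94.2, 51.1, 52.4 and 81.5% in that order. In Veh mice 2330 were higher and 164 lower, against 544 and 620 with TMM factors, 588 and 586 with median-of-ratios factors, 973 and 322 without mitochondrial genes, 3827 and 321 with all 17 libraries, 1367 and 87 with only the groups compared and 5334 and 476 at the unadjusted threshold. Leaving out 1 library gave 296 (without S2) to 3900 (without S14) higher and 35 to 300 lower. Counts also moved by over 1.5 times without S6 (453 higher), S16 (753 higher) and S13 (109 lower). In 29P mice 5110 were higher and 236 lower, against 1264 and 1000 with TMM factors, 1250 and 1024 with median-of-ratios factors, 2596 and 441 without mitochondrial genes and 75 and 6 with the run as a covariate, and 410 were lower at the unadjusted threshold. Leaving out 1 library gave 1335 (without S14) to 6605 higher and 80 to 355 (without S4) lower, and moved a count by over 1.5 times also without S3, S15, S9 and S11. Within TAC 2 genes were higher with only the groups compared and 1 without S14, and within Sham 1 was lower without the variance trend.

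No paired analysis was possible because the library numbers are unique and no number is shared between groups. Sln and Bmp10 are limited by depth, at no more than 0.626 and 0.224 CPM in the 14 libraries.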
